A study of Mus musculus with 5 samples.

Results

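A list of 9 genes that mark tissue bordering the hippocampus was followed in hippocampal RNA-seq of control and *Hdac1* cKO mice. It held *Tshz2*, *Slc17a6*, *Ctgf*, *Tcf7l2*, *Lef1*, *Prkcd*, *Nxph4*, *Cplx3* and *Ntng1*, and all 9 had a row among the 23361 genes of the files. The genes were chosen by name, as marks of thalamus, deep cortex or retrohippocampal neurons. They were selected with earlier results on the FPKM values of these 5 libraries known, among them that *Tshz2* was lower in cKO. Their difference between genotypes is therefore a description, with no p-value. The call rule used below contains a p, and for these 9 genes it serves as a label and not as a test. The question was whether *Tshz2*, *Slc17a6* and *Ctgf* vary together, as they would if the libraries held unequal amounts of neighbouring tissue. Controls (n = 2, titled WT) carried floxed *Hdac1* alleles (*Hdac1* f/f), and cKO mice (n = 3) carried the same alleles with a *Nestin-Cre* transgene. The labels give an age of 3 months, and the methods name male mice for the young group. *Nestin* drives Cre in neural progenitors, so neurons and astrocytes lose the gene while microglia and vessels are not targeted. Controls have no Cre, so the transgene and the deletion cannot be told apart. The study counts 2 control and 3 cKO mice, as many as there are libraries.

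The hippocampus lies against the thalamus, under the cortex, and passes into the subiculum, so a dissected piece can hold neurons of each. Thalamic relay neurons use the vesicular glutamate transporter VGLUT2, encoded by *Slc17a6*, and are specified by Wnt-responsive transcription factors of the TCF/LEF family. Neurons at the base of the cortex (layer 6b, a remnant of the subplate) are known for *Ctgf*, *Nxph4* and *Cplx3*. *Tshz2* encodes a teashirt zinc-finger transcription factor of near-projecting neurons in deep cortex, retrosplenial cortex and subiculum. VGLUT2 is also used by part of the subicular neurons, so *Slc17a6* is not a thalamic gene alone.

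*Tshz2* and *Slc17a6* were lower in every cKO library than in both controls, as were 9.41% of all tested genes. Both met the call rule given further on, for which reason their first RefSeq start regions are shown. Each line gives the 250 bases before the RefSeq start, with a GC box (CCGCCC or GGGCGG, the core bound by Sp-family factors) in capitals. *Tshz2* is shown at chr2:169632259-169632508 and *Slc17a6* at chr7:51621580-51621829, both on the plus strand of GRCm38.p6.

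Tshz2: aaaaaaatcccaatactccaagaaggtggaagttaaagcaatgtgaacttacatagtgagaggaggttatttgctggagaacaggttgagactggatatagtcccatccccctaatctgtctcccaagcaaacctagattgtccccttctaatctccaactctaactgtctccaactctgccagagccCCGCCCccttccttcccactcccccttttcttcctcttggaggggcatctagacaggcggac

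Slc17a6: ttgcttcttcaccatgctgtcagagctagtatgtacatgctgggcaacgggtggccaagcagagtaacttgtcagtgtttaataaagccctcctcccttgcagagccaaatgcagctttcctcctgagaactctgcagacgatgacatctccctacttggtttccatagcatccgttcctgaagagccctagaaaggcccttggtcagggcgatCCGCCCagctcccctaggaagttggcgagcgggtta

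Each of these windows held 1 GC box, at 62 bases before the start in *Tshz2* and 36 bases before it in *Slc17a6*. The second start site of *Slc17a6* held 0 GC boxes and 41.2% G and C. In the windows shown G and C made up 48.8% and 53.2% of the bases, where the median over 32851 RefSeq windows of this length was 52.4%. A GC box was found in 32.7% of all windows. The core recognised by TCF/LEF factors (CTTTGA or TCAAAG) was in neither window shown, and in 13.8% of all windows. Of the 9 genes 7 had entries, with 13 start sites in all, of which 8 held a GC box and 2 a TCF/LEF core (1 start site each of *Lef1* and *Prkcd*). *Ctgf* and *Nxph4* had no entry under these names in the set of windows used, so their start regions were not read.

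The libraries held 565363 to 636705 FPKM in total, and their depth was estimated at 5140000 to 6770000 fragments from steps in the low values. *Hdac1* itself had 8.95 and 13.1 FPKM in the controls, against 1.95, 3.12 and 3.37 FPKM in cKO libraries 1, 2 and 3, so the libraries matched their labels. Control 1 and cKO 1 form one set and control 2, cKO 2 and cKO 3 another, in that low values share steps within a set (24.6% to 28.4% of low genes in the fullest window) and not across sets (3.71% to 4.64%). A set is known only from these values, and differences are given within each set beside the pooled ones. Genes were tested where their mean reached 1 FPKM, which 12740 genes did and 7 of the 9 genes did. *Tcf7l2* and *Nxph4* stayed below it. A gene was called where the fold change was at least 1.5 and the unadjusted limma p was under 0.05. By that rule 33 of the 12740 tested genes were lower in cKO (0.259%) and 51 were higher (0.400%). After rescaling to a common total 98 of 166 called genes were lower. A single gene (0.00785%) passed an adjusted p of 0.05, the small nucleolar RNA *Snora30*, which no list holds.

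All fold changes below are differences of mean log2(FPKM + 1), and for genes near or under 1 FPKM they come out too small. FPKM is already per kilobase, so levels can be compared between genes. In the controls *Tshz2* stood highest (22.7 FPKM), followed by *Ntng1* (8.67), *Prkcd* (6.47), *Slc17a6* (6.08), *Ctgf* (4.17), *Cplx3* (1.99), *Lef1* (1.58), *Tcf7l2* (1.06) and *Nxph4* (0.326). In this order only *Cplx3* and *Lef1* were neighbours whose 2 control values overlapped. A library held an estimated 290 to 799 fragments of *Tshz2* but 0 to 7 of *Nxph4*, whose values carry almost no precision.

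**Figure D1:**
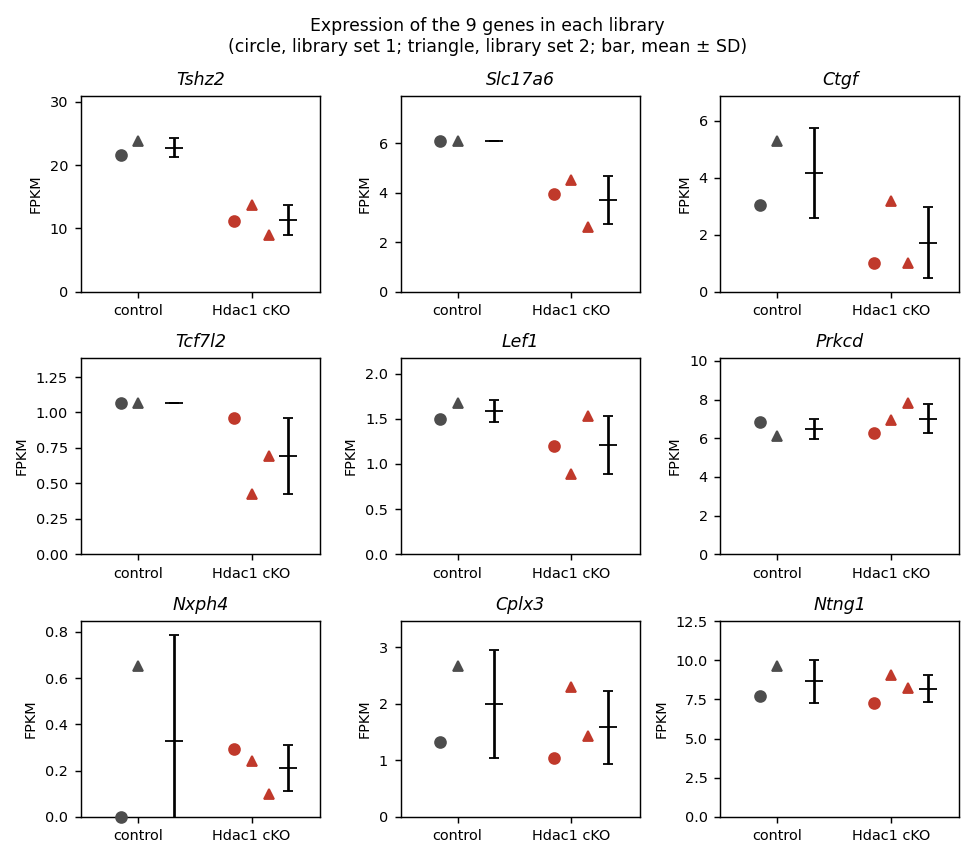
FPKM (vertical axis, linear, from 0) of each of the 9 genes in the 2 control (grey) and 3 *Hdac1* cKO libraries (red, replicates 1 to 3 from left to right), with circles for the first library set, triangles for the second, and bars for the mean ± SD. *Tshz2*, *Slc17a6* and *Tcf7l2* do not overlap between genotypes, *Ctgf* overlaps through cKO 2, and the error bar of *Nxph4* in the controls runs below 0 and is cut there. Every cKO library is below both controls for 9.41% of all tested genes, among which *Tcf7l2* is not counted.

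*Tshz2* (ENSMUSG00000047907.7) spans 169458671 to 169897316 of chromosome 2 (mm9, plus strand) and is protein-coding, like the other 8 genes. It was at 21.6 and 23.8 FPKM in controls 1 and 2, and at 11.2, 13.7 and 9.03 FPKM in cKO 1, 2 and 3. All cKO libraries lay far below both controls, with cKO 2 the highest and cKO 3 the lowest of them. The means were 22.7 ± 1.54 FPKM (SD, n = 2) and 11.3 ± 2.35 FPKM (SD, n = 3), so cKO held 49.8% of the control level. The log2 fold change was −0.96 (SE 0.16), with −0.90 between the libraries of the first set and −1.03 between those of the second. Over the settings tried its fold change ran from −1.10 to −0.82. *Tshz2* was chosen as already known to be lower, so this range is a description and no test. The exons of *Tshz2* overlap 2 long non-coding genes on the opposite strand, *Gm16898* over 5111 of 7659 nt and *A630075F10Rik* over 175 nt. Whether strand was used in counting is not stated, so their reads cannot be told apart. *A630075F10Rik* had 0.244 and 0.416 FPKM in the controls, against 0.0828, 0.214 and 0.0876 FPKM in cKO. *Gm16898* was not analysed here.

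*Slc17a6* (ENSMUSG00000030500.5, chromosome 7, 58877200 to 58926495, plus strand, mm9) was at 6.08 and 6.09 FPKM in the controls. In cKO 1, 2 and 3 it was at 3.94, 4.51 and 2.62 FPKM. The cKO libraries again lay below both controls, with cKO 2 highest and cKO 3 lowest. Their mean of 3.69 ± 0.973 FPKM (SD, n = 3) was 60.6% of the control level. The log2 fold change was −0.62 (SE 0.19), with −0.52 and −0.67 within the sets. The call rested on cKO 3, without which the fold change was −0.44 and under the required fold.

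*Ctgf* (ENSMUSG00000019997.4, now also named *Ccn2*, chromosome 10, 24315248 to 24318489, plus strand, mm9) encodes a secreted matricellular protein. It had 3.04 and 5.30 FPKM in the controls, against 1.02, 3.17 and 0.996 FPKM in cKO 1, 2 and 3. The genotypes overlapped, since cKO 2 lay just above control 1, while cKO 1 and cKO 3 were the lowest of the 5 libraries. The means were 4.17 ± 1.59 FPKM (SD, n = 2) and 1.73 ± 1.25 FPKM (SD, n = 3), and cKO held 41.4% of the control level. The log2 fold change was −0.98 (SE 0.34), with −1.0 and −1.13 within the sets. Without control 2 it was −0.66 and without cKO 3 it was −0.80, and in neither case did it meet the call rule. In estimated fragments these values correspond to 15 to 84 per library. Its exons overlap *Gm15270* on the opposite strand over 570 of 2490 nt, which was not analysed here.

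These were the 3 genes of the list that met the call rule, all lower in cKO, against the 0.259% of all tested genes given above. Because *Tshz2* gave the list its occasion and the contrast was known, nothing is read from that count. The replicates of a group are few, and in bulk tissue fewer cells of a type and less RNA per cell cannot be told apart. Among the 7 tested genes 6 had a fold change below 0, with a median of −0.24. Over all tested genes the median was 0.01, and 46.3% were below 0.

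The 4 genes known from thalamus besides *Slc17a6* had other patterns over the libraries. *Tcf7l2* (ENSMUSG00000024985.11, chromosome 19, 55816300 to 56008144, plus strand, mm9), a transcription factor at the end of the Wnt pathway that specifies thalamic neurons, had 1.06 FPKM in each control, against 0.960, 0.424 and 0.696 FPKM in cKO 1, 2 and 3. All cKO values were below both controls, but with cKO 2 lowest and not highest. The values correspond to 9 to 31 estimated fragments, and the gene was not tested. *Lef1* (ENSMUSG00000027985.8, chromosome 3, 130813389 to 130927274, plus strand), its relative, which is also expressed by brain endothelium, was at 1.5 and 1.67 FPKM against 1.20, 0.886 and 1.53 FPKM (log2 fold change −0.24, SE 0.18), and cKO 3 lay between the controls. *Prkcd* (ENSMUSG00000021948.8, chromosome 14, 31408542 to 31439396, minus strand) encodes protein kinase C delta, a marker of thalamic relay nuclei. It had 6.84 and 6.11 FPKM in the controls, against 6.27, 6.97 and 7.80 FPKM in cKO (0.10, SE 0.13). The genotypes overlapped, and cKO 3, which was lowest for *Tshz2* and *Slc17a6*, was highest for *Prkcd*. Its direction differed between the sets, at −0.11 and 0.24. *Ntng1* (ENSMUSG00000059857.7, chromosome 3, 109582958 to 109938426, minus strand) encodes netrin-G1, an adhesion protein of thalamocortical axons, and was at 7.69 and 9.65 FPKM against 7.29, 9.05 and 8.26 FPKM (−0.07, SE 0.14). Its 5 values overlapped, and without control 2 the fold change was 0.08 and without cKO 1 it was 0.0038.

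The other layer 6b genes were low. *Cplx3* (ENSMUSG00000039714.8, chromosome 9, 57447826 to 57454088, minus strand, mm9) encodes complexin 3, which regulates synaptic vesicle fusion, and was at 1.32 and 2.67 FPKM in the controls, against 1.03, 2.29 and 1.43 FPKM in cKO 1, 2 and 3. The genotypes overlapped (log2 fold change −0.20, SE 0.26), and the direction rested on control 2, without which it was 0.13. *Nxph4* (ENSMUSG00000040258.5, chromosome 10, 126962529 to 126971615, minus strand) encodes neurexophilin 4, a secreted ligand of neurexins. It was listed at 0 in control 1, at 0.653 FPKM in control 2 and at 0.293, 0.240 and 0.0982 FPKM in cKO. At 0 to 7 estimated fragments a difference was not detectable. *Ctgf* and *Cplx3* had in common that control 2 was above control 1 and cKO 2 above the other cKO libraries.

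Whether the genes vary together apart from genotype was read from the order of libraries within a genotype, which gives 4 pairs (1 pair of controls and 3 of cKO). With 5 libraries no correlation coefficient was computed. *Slc17a6* and *Ctgf* were ordered as *Tshz2* in 4 of 4 pairs, although the controls differed by less than 0.01 FPKM for *Slc17a6* and cKO 1 and cKO 3 were nearly equal for *Ctgf*. Over all other tested genes 7.00% were ordered as *Tshz2* in all 4 pairs. *Cplx3*, *Ntng1* and *Nxph4* matched in 3 of 4 pairs, and *Tcf7l2*, *Lef1* and *Prkcd* in 1 of 4. Among the tested genes of the other lists the same order was found in 2 of 19 paralogues, 1 of 8 thalamic and 1 of 14 deep cortical genes. It was found in 1 of 3 near-projecting, 0 of 5 subicular, 3 of 15 hippocampal and 1 of 4 choroid plexus genes. For upper cortical genes it was 0 of 7, for oligodendrocytes 0 of 9, for endothelium 0 of 8, for Wnt genes 0 of 5 and for habenula 0 of 1. The order was thus not limited to genes of neighbouring tissue. The plot of profiles over the libraries shows this order.

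**Figure D2:**
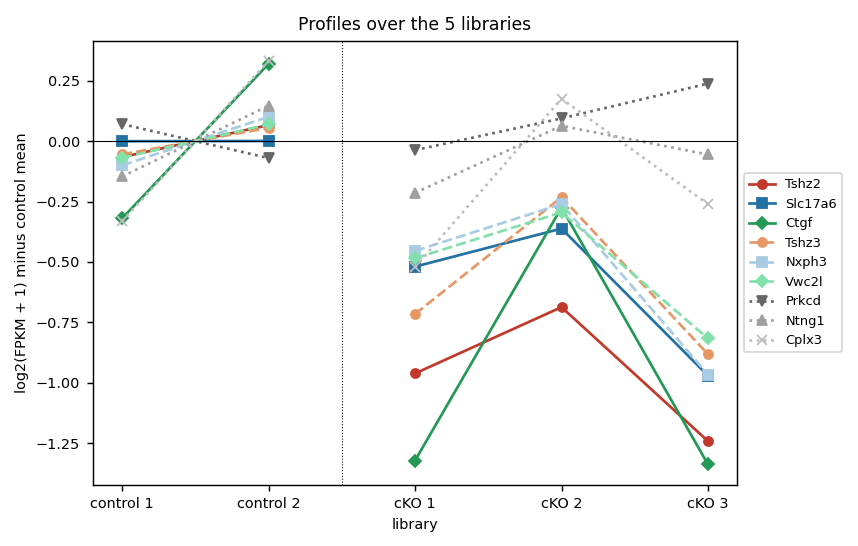
Log2(FPKM + 1) minus the control mean (vertical axis) in each of the 5 libraries for *Tshz2*, *Slc17a6* and *Ctgf* (solid), for *Tshz3*, *Nxph3* and *Vwc2l* (dashed) and for *Prkcd*, *Ntng1* and *Cplx3* (dotted), with lines joining the values of 1 gene within a genotype. The solid and dashed genes all have cKO 2 as their highest and cKO 3 as their lowest cKO library. *Ntng1* and *Cplx3* also have cKO 2 highest but cKO 1 lowest, and *Prkcd* has cKO 3 highest.

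The genes nearest to *Tshz2* were then sought among all tested genes, by the root mean square difference of log2(FPKM + 1) profiles over the 5 libraries, each centred on its mean. This measure uses the genotype difference too. Among the nearest 5 were *Slc17a6* (0.183), *Tshz3* (0.185), *Nxph3* (0.212) and *Vwc2l* (0.213), where *Tshz2* itself spread by 0.505. *Ctgf* ranked at place 25, and the other tested genes of the list at place 1367 or later. Between *Slc17a6* and *Ctgf*, which spread by 0.362 and 0.647, the difference was 0.389, larger than the spread of *Slc17a6* itself. By this 1 value *Slc17a6* was at place 12 for *Ctgf*, while *Ctgf* was at place 5790 for *Slc17a6*. The nearest genes to *Slc17a6* were *Vwc2l* (0.0716), *Nxph3* (0.0757) and *Mfsd10* (0.116), and those to *Ctgf* included *Atp2b4* (0.291) and *Tshz2* (0.296).

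Paralogues of the 9 genes were examined next, 26 genes of which 19 were tested. This list and those below were also chosen with earlier results of these data known. The p-values of their genes are therefore descriptive and no independent test. Of these 1 was called, *Tshz3*, lower in cKO. *Tshz3*, the closest relative of *Tshz2* in this set along with *Tshz1*, was at 3.07 and 3.39 FPKM in the controls, against 1.57, 2.60 and 1.29 FPKM in cKO 1, 2 and 3. Every cKO library was below both controls, with the same order within genotypes as *Tshz2*. The log2 fold change was −0.61 (SE 0.21, unadjusted p = 0.0175, adjusted p = 0.955), and −0.66 and −0.61 within the sets. The call was lost without control 2 (−0.56), without cKO 1 (−0.56) and without cKO 3 (−0.47). *Tshz1* was at 6.63 and 5.91 FPKM against 6.85, 6.03 and 5.83 FPKM, which overlapped (−0.01). *Nxph3*, a neurexophilin of deep cortex and subplate neurons, was at 11.1 and 12.9 FPKM in the controls, against 8.44, 9.80 and 5.62 FPKM in cKO. It did not overlap between genotypes, but its fold change of −0.56 (SE 0.20, unadjusted p = 0.0234, adjusted p = 0.955) was just under the required fold. *Nxph1* (0.06) and *Nxph2* (−0.09) overlapped between genotypes.

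Over all tested genes every cKO library was below both controls in 9.41% and above both in 11.0%, and 4.36% had an unadjusted p under 0.05. Among the 19 tested paralogues 3 were below (*Tshz3*, *Nxph3* and *Cplx1*), 2 were above (*Prkca* and *Prkcq*) and 2 had such a p. The main hippocampal vesicular glutamate transporter gene, *Slc17a7*, was at 300.4 to 424 FPKM (log2 fold change −0.16), far above *Slc17a6*. *Slc17a8* was at 0.426 to 0.824 FPKM and not tested. Kinases related to *Prkcd* had fold changes of 0.19 (*Prkca*), 0.04 (*Prkcb*), −0.02 (*Prkce*), −0.32 (*Prkch*), 0.19 (*Prkcq*), −0.03 (*Prkci*) and 0.09 (*Prkcz*). Relatives of *Ctgf* were at 0.08 (*Cyr61*) and 0.07 (*Nov*), while *Wisp1*, *Wisp2* and *Wisp3* stayed under 0.3 FPKM in every library. *Cplx1* (−0.14), *Cplx2* (0.03) and *Ntng2* (−0.32) were not called, *Cplx4* was listed at up to 0.11 FPKM, and *Tcf7* and *Tcf7l1*, which the Wnt list also holds, were under the minimum for testing.

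Other marker genes of the same regions address whether the neighbouring tissue as a whole differed. For thalamus 8 of 13 further genes were tested, 0 were called and 0 had an unadjusted p under 0.05 by limma. Their median log2 fold change was 0.03. Their summed FPKM was 31.1 to 34.1 in the controls and 32.1 to 33.2 in cKO. *Rora* (−0.04) and *Lhx9* (0.01) were the most abundant. *Gbx2*, a defining factor of thalamic neurons, was listed at 0 in every library but cKO 1 (0.107 FPKM), and *Shox2* was at 0 in control 1, cKO 1 and cKO 3. For the habenula, which lies beside the thalamus, 7 of 8 genes had rows, *Pou4f1* was listed at 0 in every library, and only *Tac2* was tested (0.49, adjusted p = 0.955). *Gpr151*, its other abundant gene, was at 0.371 to 1.21 FPKM. Of the thalamic genes among the 9, *Tcf7l2* and *Lef1* were near 1 FPKM, and only *Slc17a6*, *Prkcd* and *Ntng1* stayed above 2 FPKM in every library.

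**Figure D3:**
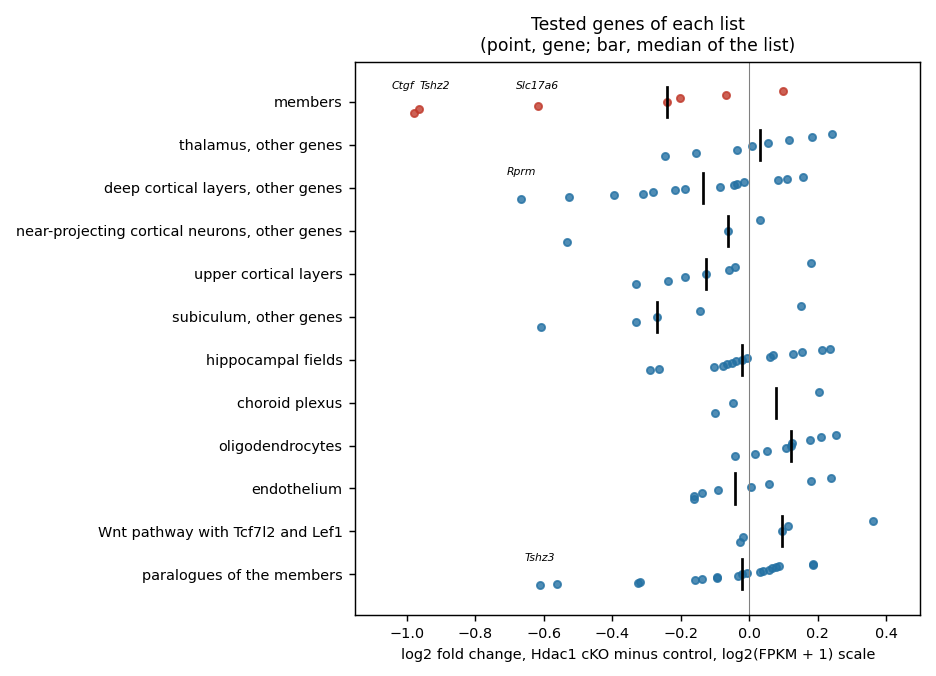
Log2 fold change (horizontal axis, *Hdac1* cKO minus control) of every tested gene of each list (points) with the list's median (bar), where genes called lower carry their names. The points left of −0.5 lie among the 9 genes (red), the deep cortical, near-projecting and subicular genes, and the paralogues. *Ttr* of the choroid plexus list (2.32) lies beyond the axis and the habenula list (1 tested gene) is left out.

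For deep cortical layers 14 of 15 further genes were tested, 11 with a fold change below 0 and a median of −0.14, and 1 was called. Their summed FPKM overlapped between genotypes, with 368 to 396 in the controls and 368 to 398 in cKO, *Crym* making up most of it. The called gene was *Rprm*, a p53-responsive gene of layer 6 neurons, at 16.0 and 12.7 FPKM in the controls, against 11.4, 7.28 and 7.66 FPKM in cKO. Its fold change was −0.67 (SE 0.19, unadjusted p = 0.00792, adjusted p = 0.955), and −0.45 and −0.69 within the sets. The call was lost without control 1 (−0.51) or cKO 2 (−0.56). Another 3 genes, named after their values were seen, had an unadjusted p under 0.05 without reaching the fold, all lower and none overlapping. *Tbr1*, a transcription factor of layer 6 neurons, had −0.53 (adjusted p = 0.955), from 7.33 and 5.67 FPKM to 5.05, 4.35 and 3.28 FPKM. *Nr4a2*, a nuclear receptor of subplate, claustrum and subiculum neurons, had −0.39 (adjusted p = 0.955), from 16.4 and 17.0 FPKM to 13.5, 14.2 and 10.03 FPKM, in the same order within genotypes as *Tshz2*. *Parm1* had −0.31 (adjusted p = 0.955). The most abundant genes of this list, *Crym* (0.11) and *Hs3st4* (−0.01), overlapped between genotypes.

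Genes of near-projecting cortical neurons, the class that *Tshz2* defines, were 4 (*Slc17a8* among them), of which 3 were tested and 0 called, with a median of −0.06. *Vwc2l*, which encodes a secreted protein of this class, was at 2.68 and 3.05 FPKM in the controls, against 1.76, 2.15 and 1.19 FPKM in cKO (−0.53, SE 0.18, unadjusted p = 0.0199, adjusted p = 0.955). It did not overlap between genotypes and was ordered as *Tshz2* in all 4 pairs. *Lypd1* (0.03) and *Trhr* (−0.06) overlapped. The mean log2(FPKM + 1) of the 3 genes was below both controls in cKO 1 and cKO 3, and between the controls in cKO 2.

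Genes of the subiculum were 5, all tested, with 0 called and 0 at an unadjusted p under 0.05 by limma. Their median was −0.27. Their summed FPKM came to 23.9 and 23.8 in the controls, against 16.2, 24.2 and 15.4 in cKO 1, 2 and 3, so that cKO 2 stood at the control level and the other cKO libraries below it. *Nts*, the neurotensin gene, had the highest mean, with 12.2 and 10.5 FPKM against 7.21, 12.8 and 3.64 FPKM (−0.61, SE 0.38, adjusted p = 0.955). *Fn1* (−0.14) was next by mean and overlapped, and in cKO 3 it was above *Nts* (5.30 FPKM). Without control 2 the median of the 5 genes was −0.0027.

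**Figure D4:**
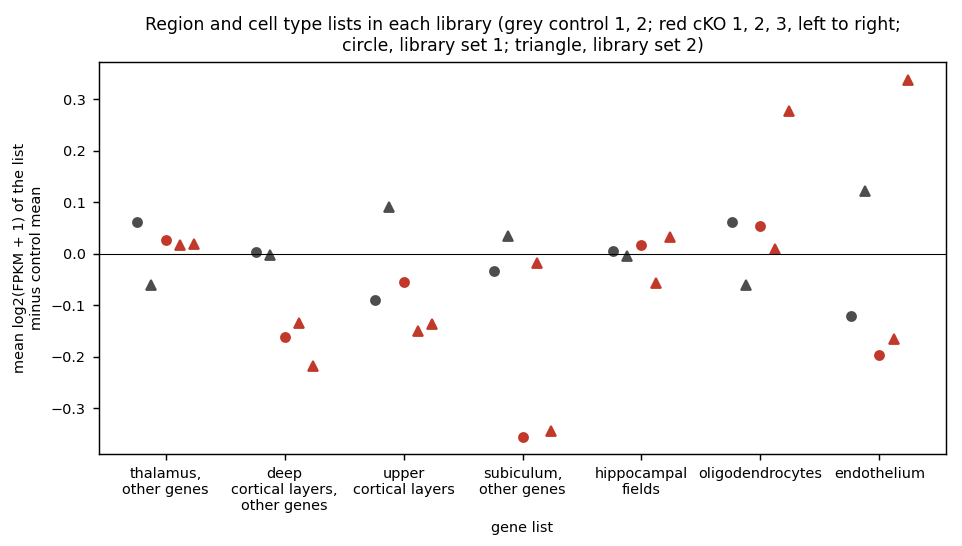
Mean log2(FPKM + 1) of the tested genes of each list minus its control mean (vertical axis) in the 2 control libraries (grey) and the 3 cKO libraries (red), with circles for the first library set and triangles for the second. The deep cortical list is below both controls in every cKO library, and the subicular list in cKO 1 and cKO 3. The upper cortical list is below both in cKO 2 and cKO 3, and the thalamic and hippocampal lists stay within 0.1 of the control mean.

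Upper cortical layers had 7 tested genes of 8, with 6 below 0, 0 called and a median of −0.12. Of these 2 were below both controls in every cKO library (*Cux2* among them), 1 was above both (*Rorb*), and 1 (*Cux2*) had an unadjusted p under 0.05. *Rasgrf2* (−0.04) and *Rorb* (0.18) were the most abundant, and *Cux2* was at 5.60 and 6.20 FPKM against 4.71, 4.71 and 4.06 FPKM (−0.33, adjusted p = 0.955). Genes of the hippocampal fields themselves were all tested (15 genes), with 0 called, 0 at an unadjusted p under 0.05 by limma and a median of −0.02. Their summed FPKM was 457.5 to 461 in the controls and 446 to 471 in cKO, led by *Mpped1* (−0.08) and *Neurod6* (0.15). Single genes went both ways, among them, named after their values were seen, *Wfs1* (−0.29, below both controls in every cKO library) and *Zbtb20* (0.24, above both).

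Lists for other cells were set beside these values. The summed FPKM of 12 choroid plexus genes was 169 and 7.49 in controls 1 and 2 and 76.9, 607 and 26.1 in cKO 1, 2 and 3. *Ttr*, the transthyretin gene and most abundant of the list, had 157 and 1.33 FPKM in the controls, against 67.9, 589 and 20.7 FPKM in cKO (2.32, adjusted p = 0.955), *Kl* was next in level (−0.05), and *Folr1*, *Kcne2* and *Otx2* were each listed at 0 in at least 1 library. These sums, which *Ttr* sets, were highest in cKO 2 and lowest in cKO 3 within cKO, as for *Tshz2*, and higher in control 1 than in control 2, unlike *Tshz2*. Single genes of the list differed from the sums, and *Folr1*, *Prlr* and *Tmem72* were ordered as *Tshz2* in 4 of 4 pairs. Of 4 tested genes 0 were called. The 9 oligodendrocyte genes summed to 1904 and 1634 FPKM in the controls, against 1911, 1615 and 2074 FPKM in cKO (0 called, median 0.12), with none at 0, and *Mbp* (0.02) highest. The 8 endothelial genes, relevant because vessels also express *Ctgf* and *Lef1*, summed to 63.1 and 62.0 FPKM in the controls, against 53.4, 52.5 and 77.5 FPKM in cKO (0 called, median −0.04), with none at 0, and *Cldn5* (−0.16) and *Slco1a4* (0.06) highest. The cKO 3 library, lowest for *Ctgf*, was the highest of the 5 for endothelial genes, and for *Lef1* it was the highest of the cKO libraries. The part of dissection, choroid plexus, white matter or vessels in the differences of *Tshz2*, *Slc17a6* and *Ctgf* was not tested.

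The Wnt pathway, in which *Tcf7l2* and *Lef1* act, was followed through 10 genes, of which 5 were tested and 0 called. The median was 0.10. *Ctnnb1*, the coactivator of TCF/LEF factors, had 0.11. *Apcdd1*, a Wnt inhibitor that is itself induced by the pathway, was at 7.05 and 7.71 FPKM in the controls, against 9.25, 10.1 and 9.93 FPKM in cKO. It did not overlap between genotypes but missed the fold (0.36, SE 0.11, unadjusted p = 0.0124, adjusted p = 0.955).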

How the data were processed

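RNA-seq libraries of 2 control and 3 *Hdac1* cKO hippocampi were made by the authors from total RNA (Illumina TruSeq). The deposited values are FPKM per gene, which the authors obtained from collapsed reads with Tophat2 and Cufflinks 2.0.0 and UCSC gene models of mm9. Whether strand was used is not stated. FPKM are not counts, so no count model was used. Groups and replicate numbers came from the sample titles. The members and all gene lists were chosen with earlier results of these data known.

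Genes averaging 1 FPKM or more were fitted with limma 3.58.1 (R 4.3.3; lmFit, eBayes with trend) on log2(FPKM + 1), genotype as the only term, 5 libraries, two-sided, Benjamini-Hochberg adjustment over all tested genes. The script was tested on simulated data. Library sets were read from genes with a mean under 0.3 FPKM (window of 0.05 log2 units, over 10% shared), and depth from genes with 1 transcript of at least 1 kb, so fragment numbers are approximate and no interval was derived. No read totals were used. Coordinates and overlaps came from GENCODE vM1 (NCBIM37, the same build as mm9), and start regions from RefSeq (GRCm38.p6).

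Genes were named by rule: the 9 members, their paralogues, the called genes and the 2 most abundant genes of each other list, overlapping genes, *Hdac1*, and the nearest profiles (predicted genes and short RNAs left out). Other genes were named after their values were seen. A few genes that the rule names are not reported here.

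Alternatives were a pseudocount of 0.1, no filter or a minimum mean of 5 FPKM, size factors, quantile normalization, a common total, no trend, blocks for replicate number or library set, and leaving out each library.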

Additional observations from a re-analysis of the deposited data

How the results depend on the processing

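*Tshz2*, chosen as already lower in cKO, was lower in all 14 alternatives. *Slc17a6* and *Ctgf* kept their direction in the 13 where they were tested (−0.75 to −0.44 and −1.37 to −0.66). With the replicate block (same-numbered libraries deviated together with r = 0.402 and 0.269 over genes, and control 2 with cKO 3, of one library set but not one number, with r = 0.151) *Tshz2* was at −0.82, *Slc17a6* at −0.44 and no longer called, and *Ctgf* at −0.80, while the paralogue *Tshz3* (−0.47) lost its call. That fit called 133 genes in all, 58 of them lower, and 14 passed an adjusted p of 0.05, against 84, 33 and 1 without it. No control carries the replicate number of cKO 3, so the block also takes cKO 3 out of the comparison. Leaving out cKO 3 with no block gave 113 called genes, 49 of them lower, and 3 at an adjusted p of 0.05. With the library set as a block 5 passed. Called genes were 142 (61 lower) with a pseudocount of 0.1 and 43 (14 lower) with a minimum mean of 5 FPKM (9191 genes tested). Rescaling to a common total gave 166 (98 lower) of 13520 tested genes. Leaving out 1 library gave 92 to 231 called genes, 33 to 123 lower ones and 1 to 5 at an adjusted p of 0.05. Of the 9 genes 3 were called, 1 with a minimum mean of 5 FPKM (which leaves *Slc17a6* and *Ctgf* untested), and 1 to 3 without 1 library.

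The medians of the lists stayed within the spread between libraries in 158 of 181 alternatives, and 18 changed sign. With a minimum mean of 5 FPKM, which leaves fewer genes, they were −0.036 for thalamus, −0.22 for deep cortex, −0.61 for subiculum and 2.32 for choroid plexus. Without a filter they were 0.065 for habenula and −0.19 for deep cortex. After rescaling to a common total they were −0.21 for deep cortex, −0.080 for hippocampal fields and −0.087 for paralogues. With the replicate block they were −0.094 for deep cortex and −0.0089 for the Wnt genes. Leaving out 1 library gave −0.075 to 0.080 for thalamus, −0.17 to −0.085 for deep cortex, −0.24 to 0.037 for near-projecting neurons, −0.26 to 0.013 for upper layers, −0.40 to −0.0027 for subiculum, −0.0096 to 0.15 for the Wnt genes, −0.090 to −0.0089 for paralogues and −0.53 to −0.19 for the 9 genes. The cause of these shifts was not tested. Depth limits *Nxph4*, *Tcf7l2*, *Lef1*, *Cplx3* and *Ctgf* most, with at most 84 estimated fragments in a library.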
